A study of Mus musculus with 8 samples.

Results

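Collagen genes were followed in RNA-seq libraries of cells from the mouse testis at postnatal day 12, in 4 libraries from Brg1 cKO testes and 4 from Brg1 WT testes. Members were all rows of the deposited count table whose symbol has the form Col, a number, a and a number. This gave 44 of the 28460 rows, divided by textbook class into 11 fibrillar chains, 6 basement membrane (type IV) chains and 27 other collagens. Brg1, the product of Smarca4, is the motor ATPase of SWI/SNF, a complex that moves nucleosomes, and cKO stands for its conditional knockout. The mice of both genotypes were of a mixed background, and the sources used here do not say which promoter drives the recombinase. The cells were labelled as spermatogenic and were freed with collagenase and trypsin and sieved; the labels name no marker-based sort.

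Collagens are proteins of the extracellular matrix built from 3 chains wound into a triple helix. Fibrillar collagens form the cables of connective tissue, and type IV collagens form the sheet-like network of basement membranes. In the testis the seminiferous tubules are wrapped in a basement membrane to which Sertoli cells and peritubular myoid cells contribute, with fibrillar collagen outside it made by stromal and peritubular cells. The collagen values are therefore given beside markers of the somatic cells.

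The library totals ran from 20456700 to 27872400 estimated counts in Brg1 cKO and from 25213100 to 32596000 in Brg1 WT. Smarca4 had 111 to 129 CPM (depth-scaled counts, on TMM-adjusted totals) in the Brg1 cKO libraries and 338 to 357 CPM in the Brg1 WT libraries, with no overlap. Sertoli cell markers summed to 7469 to 9874 CPM in Brg1 cKO and 5841 to 7690 CPM in Brg1 WT. Of these, Clu alone averaged 4125 CPM in Brg1 cKO and 2808 CPM in Brg1 WT. The list named pan-germ cell markers, which also holds genes of meiosis such as Sycp1 and Dmc1, summed to 1558 to 1949 CPM in Brg1 cKO. In Brg1 WT its sum was 1971 to 2624 CPM. The libraries labelled as spermatogenic carried the defining transcripts of Sertoli cells (Sox9, Amh, Wt1) as well as those of germ cells (Ddx4, Dazl). In bulk samples like these, fewer cells of a type and less RNA per cell cannot be told apart.

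Most collagen transcripts had higher values in Brg1 cKO, but few of the differences passed the test. Of the 41 collagen genes with enough counts to be tested, 31 had a positive and 10 a negative log2 fold change (Brg1 cKO over Brg1 WT), and their median was 0.40, beside 0.01 over all 16059 genes tested. Col4a5, Col4a6, Col16a1 and Col23a1 rose and Col25a1 fell at an adjusted p under 0.05 (edgeR quasi-likelihood test, Benjamini-Hochberg over all genes tested), while 36 were not called. That is 12.2% of the tested collagen genes called, against 20.6% of all genes tested. By direction, 4 collagen genes were called higher (9.76%, against 8.79% of all genes) and 1 lower (2.44%, against 11.8%). The libraries of the genotypes did not overlap for 5 collagen genes that were higher in Brg1 cKO (Col4a4, Col4a6, Col6a4, Col9a2 and Col23a1) and for 2 that were lower (Col17a1 and Col25a1), where 11.1% and 15% of all genes tested did so (26% in either direction). The shares called higher and not overlapping on the higher side thus lay near those of all genes.

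**Figure D1:**
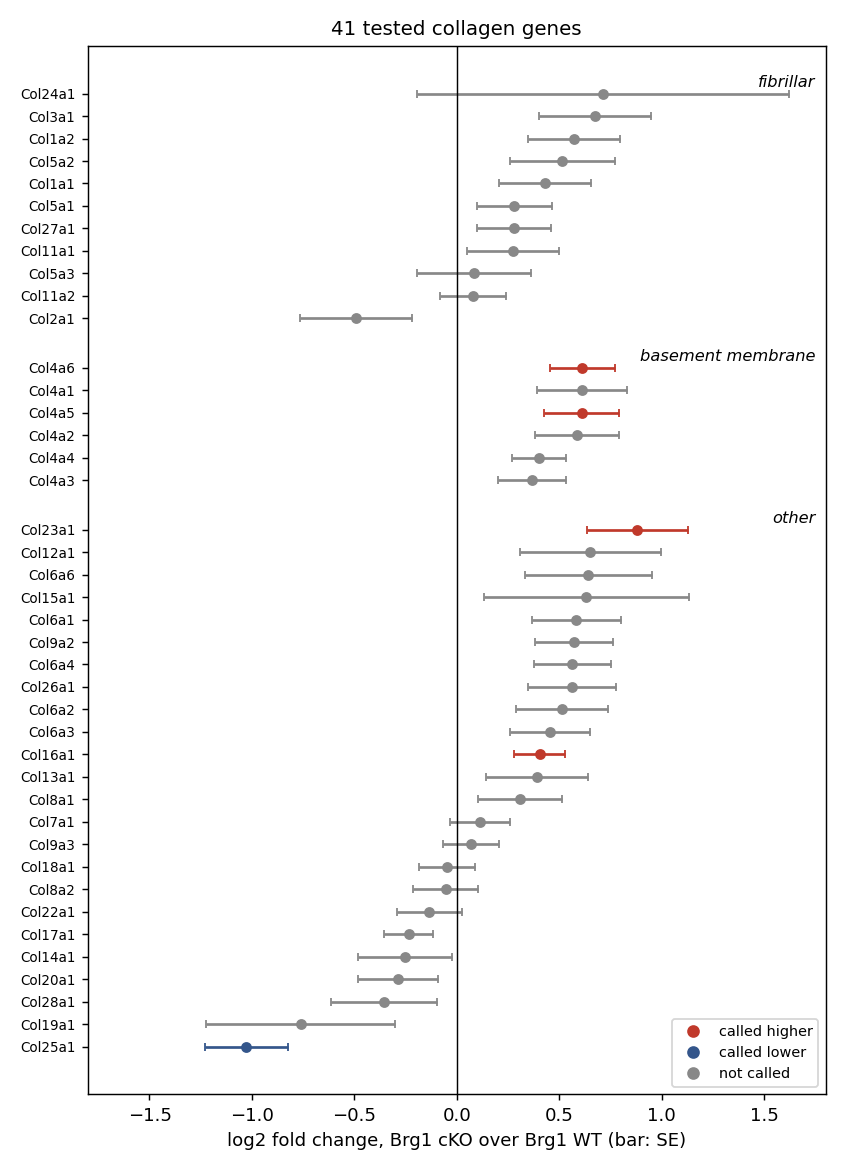
Log2 fold change (Brg1 cKO over Brg1 WT) of the 41 tested collagen genes on the x axis, with 1 row a gene, grouped by class. Points are the fitted values and bars their SE, with red and blue for the genes called higher and lower in Brg1 cKO and grey for those not called. All 6 type IV chains lie between 0.37 and 0.61, whereas the other collagens spread from -1.03 to 0.88.

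Abundant collagens mostly had positive values. Among the 21 members with a mean of at least 10 CPM over the 8 libraries, a split chosen after the values were seen, 19 had a positive log2 fold change, the median was 0.56 and 4 were called, all of them higher. That is 19% called higher, against 8.79% of all genes tested, and 90.5% positive, against 51.5%. The whole set of genes was not split by abundance, so these shares are not those of abundant genes. Among the 20 tested members below 10 CPM, 12 were positive and 8 negative, at a median of 0.08. The single call was Col25a1, which is 5% called lower, against 11.8% of all genes tested. The other 3 members were below the count filter. Col6a5 had 0, 9, 0 and 8 counts in Brg1 cKO replicates 1 to 4 and 6, 0, 0 and 0 in Brg1 WT replicates 1 to 4. Col9a1 had 20 counts in all in Brg1 cKO and 15 in Brg1 WT, and Col10a1 had 8 in Brg1 cKO and 7 in Brg1 WT. For these 3 no difference was detectable at this depth.

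The count of calls depended on single libraries. Leaving out Brg1 cKO replicate 4, in which most collagens were low, gave 13 collagen genes called higher. All genes called higher then numbered 1391, against 1412 with all 8 libraries. Leaving out Brg1 cKO replicate 1 or 3 gave none by edgeR, with 8 and 10 higher at an unadjusted p under 0.05. In those fits all genes called higher fell to 556 and 694. The count of collagens called higher was 2 when Brg1 cKO replicate 2 was dropped. Dropping Brg1 WT replicates 1, 2, 3 and 4 in turn gave 1, 4, 3 and 2. Over all genes, 21.4%, 12.6%, 10.9%, 13.2% and 16.8% were called in either direction in these fits, in the same order, against 20.6% as reported. DESeq2 called 13 collagen genes and 2220 of all genes higher on all 8 libraries. Col25a1 was the only one called lower in each of these fits.

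Fibrillar chains were among the most abundant collagens, and none passed the edgeR test. Unadjusted, 2 of 11 (Col1a2 and Col3a1) had p under 0.05, against 15 of the 41 tested collagens and 5897 of all 16059 genes tested. Per kb of the longest annotated coding transcript, Col1a2 had 141 CPM per kb in Brg1 cKO and 94.8 in Brg1 WT, the highest level of any collagen in these cells in each genotype. Col1a1 had 65.9 CPM per kb in Brg1 cKO and 48.9 in Brg1 WT, and Col3a1 had 67.6 in Brg1 cKO and 42.4 in Brg1 WT. Together the 11 fibrillar genes summed to 1873, 2142, 1703 and 1024 CPM in Brg1 cKO replicates 1 to 4 and to 857, 1340, 1239 and 1236 CPM in Brg1 WT replicates 1 to 4. Brg1 cKO replicates 1 to 3 lay above every Brg1 WT library, and replicate 4 lay among them. The class averaged 1685 ± 476 CPM in Brg1 cKO and 1168 ± 213 CPM in Brg1 WT (SD, n = 4 each), a ratio of 1.44, and 1.63 with Brg1 cKO replicate 4 left out. Col1a1, Col1a2 and Col3a1 made up most of the sum. The median log2 fold change over the 11 genes was 0.28, and the mean log2 CPM in Brg1 cKO minus that in Brg1 WT was 0.24, against a log2 ratio of sums of 0.53.

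Col1a1, the first of the chains of type I collagen, had 435.5, 501, 388 and 239.6 CPM in Brg1 cKO replicates 1 to 4 and 213.6, 333.1, 298.5 and 314.6 CPM in Brg1 WT replicates 1 to 4. Its partner chain Col1a2 had 864.1, 899.2, 781.2 and 469.1 CPM in Brg1 cKO and 351.9, 578.1, 552.2 and 546.4 CPM in Brg1 WT. For both chains the groups overlapped through Brg1 cKO replicate 4 alone. Col3a1, the chain of type III collagen, which accompanies type I in soft tissue, had 395.7, 528.8, 382.4 and 197.9 CPM in Brg1 cKO and 178.2, 275.6, 246.6 and 242.1 CPM in Brg1 WT. The log2 fold changes were 0.43 ± 0.22 for Col1a1, 0.57 ± 0.22 for Col1a2 and 0.68 ± 0.27 for Col3a1 (SE), with adjusted p = 0.199, 0.101 and 0.113 by edgeR. Without Brg1 cKO replicate 4 all 3 were called, at 0.61, 0.74 and 0.89 (edgeR adjusted p = 0.0303, 0.0196 and 0.0124), and DESeq2 called Col1a2 and Col3a1 on all 8 libraries.

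The other fibrillar chains are minor partners of types I and III or belong to cartilage. Col5a1 and Col5a2, chains of the type V collagen that starts and limits fibrils, had log2 fold changes of 0.28 ± 0.18 and 0.52 ± 0.26. Col11a1, Col11a2, Col27a1 and Col5a3 had 0.27, 0.08, 0.28 and 0.09, none of them called. Col2a1, the main collagen of cartilage, had 2.51 ± 0.90 CPM in Brg1 cKO and 3.55 ± 0.79 CPM in Brg1 WT (SD, n = 4 each) and a log2 fold change of -0.49 ± 0.27, the only negative one in the class. Col24a1 was uneven within each genotype, with 3.46 CPM in Brg1 cKO replicate 4 and 1.67 CPM in Brg1 WT replicate 4 against 0.26 to 0.60 CPM in the remaining 6 libraries.

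**Figure D2:**
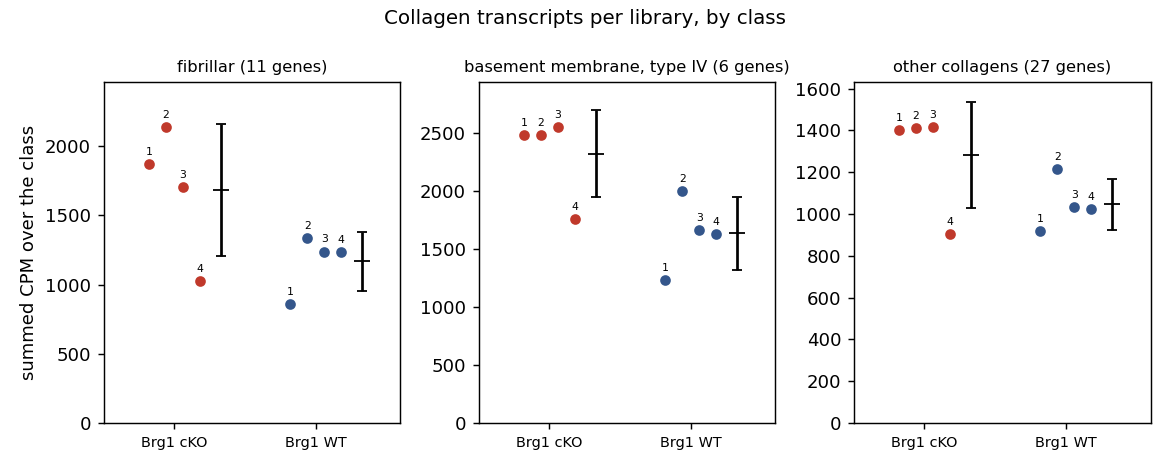
Summed CPM over all genes of each class (y axis, from 0), with 1 point a library numbered by its replicate, Brg1 cKO in red and Brg1 WT in blue. Black bars are the mean ± SD of the 4 libraries, and in each class Brg1 cKO replicates 1 to 3 lie above all Brg1 WT libraries while replicate 4 does not.

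All 6 type IV chains had positive log2 fold changes, and 2 of them, Col4a5 and Col4a6, passed the test. Type IV collagen is made of 6 chains whose genes lie as neighbouring pairs on opposite strands, Col4a1 with Col4a2, Col4a3 with Col4a4 and Col4a5 with Col4a6. The log2 fold changes ran from 0.37 to 0.61 with a median of 0.60. Of the 6, 5 had an unadjusted p under 0.05, where 15 of the 41 tested collagens and 5897 of all 16059 genes tested did so. The class summed to 2484, 2484, 2555 and 1759 CPM in Brg1 cKO replicates 1 to 4 and 1233, 2001, 1668 and 1633 CPM in Brg1 WT replicates 1 to 4. Brg1 cKO replicate 4 lay below Brg1 WT replicate 2 and above the other Brg1 WT libraries. The class averaged 2321 ± 376 CPM in Brg1 cKO and 1634 ± 315 CPM in Brg1 WT (SD, n = 4 each), a ratio of 1.42, and 1.53 without Brg1 cKO replicate 4.

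Col4a5 and Col4a6, neighbours on the X chromosome, encode chains of specialised basement membranes that include the kidney glomerulus and smooth muscle. Their promoters are shown because they are the called pair of this class. The letters are the bases before the start of each gene in RefSeq (GRCm38.p6), which for Col4a5 (plus strand, chrX:141475169-141475384) stop where GENCODE M21 places an exon and for Col4a6 are from the minus strand (chrX:141474077-141474326). Neither stretch overlaps an annotated gene. Capitals mark CCAAT or GGGCGG on either strand (ATTGG or CCGCCC on the other), which do not overlap each other here.
Col4a5: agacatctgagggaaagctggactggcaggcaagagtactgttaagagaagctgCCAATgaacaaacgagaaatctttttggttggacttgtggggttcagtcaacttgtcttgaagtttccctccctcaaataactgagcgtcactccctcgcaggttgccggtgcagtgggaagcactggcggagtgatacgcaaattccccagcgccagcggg
Col4a6: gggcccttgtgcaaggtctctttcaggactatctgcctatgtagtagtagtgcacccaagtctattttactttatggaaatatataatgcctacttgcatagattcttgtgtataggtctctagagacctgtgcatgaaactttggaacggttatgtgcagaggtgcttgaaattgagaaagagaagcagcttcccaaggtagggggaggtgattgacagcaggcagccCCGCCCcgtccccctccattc
The Col4a5 stretch of 216 bases held 1 CCAAT and the Col4a6 stretch of 250 bases 1 GGGCGG, and neither held TATAAA or its reverse complement TTTATA. Of 32851 promoter stretches of 250 bases in the same RefSeq table, 33.8% held CCAAT, 32.7% GGGCGG and 12.4% TATAAA on either strand.

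Col4a5 had 99.1, 85, 105.6 and 68.3 CPM in Brg1 cKO replicates 1 to 4 and 42.8, 75.1, 56.8 and 60.0 CPM in Brg1 WT replicates 1 to 4. Col4a6 had 21.5, 21.8, 22.9 and 16.3 CPM in Brg1 cKO and 10.02, 15.8, 14.2 and 13.9 CPM in Brg1 WT. Every Brg1 cKO library exceeded every Brg1 WT library for Col4a6, whereas for Col4a5 Brg1 cKO replicate 4 lay below Brg1 WT replicate 2. Both chains were 1.53-fold higher in Brg1 cKO, with a log2 fold change of 0.61 ± 0.18 for Col4a5 (edgeR adjusted p = 0.0464) and 0.61 ± 0.16 for Col4a6 (edgeR adjusted p = 0.0255). Of the 8 fits that left out 1 library, Col4a6 was called in 6 and lost without Brg1 cKO replicate 1 or 3 (edgeR adjusted p = 0.0688 and 0.0658). Col4a5 was called in 2, those without Brg1 cKO replicate 4 and without Brg1 WT replicate 2, with edgeR adjusted p = 0.0708 to 0.114 in the others.

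Col4a1 and Col4a2 form the type IV collagen of nearly all basement membranes. Col4a1 had 840.8, 904.5, 756.7 and 484.3 CPM in Brg1 cKO and 373.8, 650.5, 481.7 and 447.0 CPM in Brg1 WT, and Col4a2 had 483.5, 576.6, 491.1 and 315.0 CPM in Brg1 cKO and 242.6, 407.5, 307.1 and 284.6 CPM in Brg1 WT. Brg1 cKO replicate 4 lay below Brg1 WT replicate 2 for each gene and above the other Brg1 WT libraries. Their log2 fold changes, 0.61 ± 0.22 and 0.59 ± 0.20 (SE), were of the size of those of Col4a5 and Col4a6 but did not pass the test (edgeR adjusted p = 0.0779 and 0.0721). Both were called without Brg1 cKO replicate 4 (0.77 and 0.74, edgeR adjusted p = 0.0209 and 0.0211), without Brg1 WT replicate 2 (0.79 and 0.75, edgeR adjusted p = 0.0480 and 0.0444) and by DESeq2 on all libraries.

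Col4a3 and Col4a4, chains that replace Col4a1 and Col4a2 in the glomerulus and are also found in the tubule wall of the testis, stood at 45.2 and 60.4 CPM per kb in Brg1 cKO and 35.1 and 45.8 CPM per kb in Brg1 WT. By that measure they were of the order of Col4a1 and Col4a2, at 113 and 72.3 CPM per kb in Brg1 cKO and 73.8 and 48.1 CPM per kb in Brg1 WT, and above Col4a5 (13.7 in Brg1 cKO and 8.98 in Brg1 WT) and Col4a6 (3.10 in Brg1 cKO and 2.03 in Brg1 WT). Col4a4 had 644.0, 539.6, 715.0 and 543.5 CPM in Brg1 cKO and 357.3, 513.5, 487.2 and 493.2 CPM in Brg1 WT, without overlap. Its log2 fold change was 0.40 ± 0.13 (edgeR adjusted p = 0.0579), and that of Col4a3 was 0.37 ± 0.17 (edgeR adjusted p = 0.144). Unlike for Col1a1 or Col4a1, Brg1 cKO replicate 4 was close to the other Brg1 cKO libraries for these genes, at 0.86 of their mean for Col4a4 and 0.82 for Col4a3, against 0.54 for Col1a1 and 0.58 for Col4a1.

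**Figure D3:**
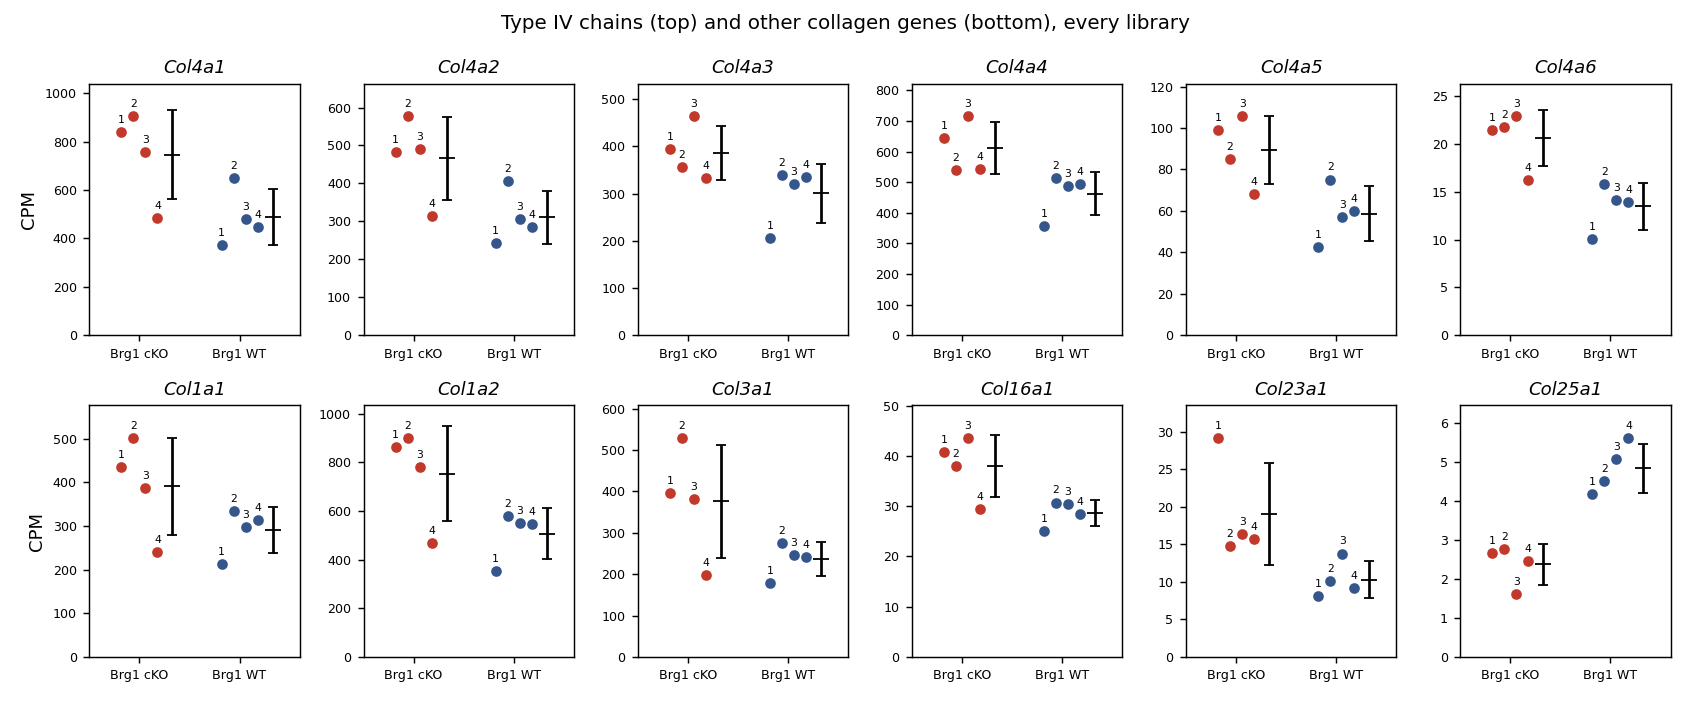
CPM (y axis, from 0) of the 6 type IV chains in the upper row and of Col1a1, Col1a2, Col3a1, Col16a1, Col23a1 and Col25a1 in the lower row, with 1 point a library numbered by replicate. Red is Brg1 cKO, blue is Brg1 WT and black bars are mean ± SD (n = 4 each); the libraries do not overlap for Col4a4, Col4a6, Col23a1 and Col25a1.

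Among the other collagens, the filament-forming type VI chains had positive log2 fold changes that did not pass the test, the multiplexin Col18a1 lay at -0.05, and the transmembrane collagens went both ways. The 27 members summed to 1403, 1411, 1418 and 904 CPM in Brg1 cKO replicates 1 to 4 and 917, 1213, 1031 and 1023 CPM in Brg1 WT replicates 1 to 4, so that Brg1 cKO replicate 4 was the lowest of all 8. The median log2 fold change was 0.35 over the 24 tested members (0.21 without Brg1 WT replicate 1), with 2 called higher, 1 called lower and 21 not called.

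Type VI collagen forms beaded filaments around cells. Col6a1 had 299.4, 301.3, 318.6 and 193.9 CPM in Brg1 cKO and 118.5, 223.7, 210.6 and 189.7 CPM in Brg1 WT, and Col6a2 had 177.5, 187.9, 181.7 and 106.5 CPM in Brg1 cKO and 75.8, 137.1, 127.3 and 118.0 CPM in Brg1 WT. Brg1 cKO replicate 4 lay among the Brg1 WT libraries for each. The log2 fold changes were 0.58 ± 0.22 and 0.51 ± 0.22 (edgeR adjusted p = 0.0912 and 0.136), and both were called when Brg1 cKO replicate 4 was dropped (edgeR adjusted p = 0.0375 and 0.0366). Col6a3, Col6a4 and Col6a6 had log2 fold changes of 0.46, 0.56 and 0.64, none of them called, and only Col6a4 showed no overlap.

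The multiplexins Col15a1 and Col18a1 sit in or beside basement membranes and carry the fragments restin and endostatin. Col18a1 had 457.0, 413.6, 442.0 and 303.0 CPM in Brg1 cKO and 459.7, 463.5, 350.8 and 396.7 CPM in Brg1 WT. Its libraries overlapped broadly, at 404 ± 69.6 CPM in Brg1 cKO and 418 ± 54.1 CPM in Brg1 WT (SD, n = 4 each), and its log2 fold change of -0.05 ± 0.14 (edgeR adjusted p = 0.827) was 0.07 once Brg1 cKO replicate 4 was dropped, 0.001 once Brg1 WT replicate 1 was dropped and 0.01 once Brg1 WT replicate 2 was dropped. Col15a1 was uneven within each genotype, with 93.3, 164.7, 156.8 and 34.5 CPM in Brg1 cKO and 53.8, 115.8, 61.0 and 60.1 CPM in Brg1 WT (log2 fold change 0.63 ± 0.50, edgeR adjusted p = 0.399).

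FACIT collagens decorate fibrils. Of 8 tested, 1 rose and 7 were not called, and 4 had negative values. Col16a1, a FACIT collagen of fibroblasts and smooth muscle, had 40.8, 37.9, 43.5 and 29.3 CPM in Brg1 cKO and 25.1, 30.7, 30.4 and 28.5 CPM in Brg1 WT, with Brg1 cKO replicate 4 among the Brg1 WT libraries. It was 1.32-fold higher (log2 fold change 0.40 ± 0.12 SE, edgeR adjusted p = 0.0454). The call held in only 1 of the 8 fits that left out a library, that without Brg1 cKO replicate 4 (edgeR adjusted p = 0.0672 to 0.118 in the others), and limma-voom did not make it (adjusted p = 0.0514). Col9a2, a cartilage FACIT chain, had 3.51 to 3.66 CPM in Brg1 cKO and 1.84 to 3.09 CPM in Brg1 WT (log2 fold change 0.57 ± 0.19, edgeR adjusted p = 0.0583), while its partner Col9a3 had 0.07. Col12a1, Col14a1, Col19a1, Col20a1 and Col22a1 had 0.65, -0.25, -0.76, -0.29 and -0.13, none of them called.

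The membrane-spanning collagens held the largest called rise and the called fall. Col23a1, a transmembrane collagen, had 29.2, 14.8, 16.4 and 15.7 CPM in Brg1 cKO and 8.10, 10.1, 13.8 and 9.24 CPM in Brg1 WT. It was 1.84-fold higher in Brg1 cKO (log2 fold change 0.88 ± 0.25 SE, edgeR adjusted p = 0.0353) with no overlap, and Brg1 cKO replicate 1 stood far above the rest. The call held without Brg1 cKO replicate 2 or 4 or Brg1 WT replicate 3 and was lost in the other 5 fits (edgeR adjusted p = 0.0596 to 0.0941), where without Brg1 cKO replicate 1 the log2 fold change was 0.60.

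Col25a1, a transmembrane collagen best known from neurons, went the other way and kept its call in each fit that left out 1 library. It had 2.65, 2.77, 1.604 and 2.47 CPM in Brg1 cKO and 4.18, 4.52, 5.07 and 5.62 CPM in Brg1 WT. All Brg1 cKO libraries lay below all Brg1 WT libraries. It was 2.04-fold lower in Brg1 cKO (log2 fold change -1.03 ± 0.20 SE, edgeR adjusted p = 0.0103), with -1.11 to -0.88 and edgeR adjusted p = 0.0117 to 0.0320 over the 8 left-out libraries. The other transmembrane collagens were not called, Col13a1 at 0.39 and Col17a1, an anchor of epithelial cells, at -0.23 with every Brg1 cKO library below every Brg1 WT library. The promoters of the pair that moved in opposite directions, the 250 bases before each start in RefSeq (GRCm38.p6, plus strand, Col23a1 at chr11:51289670-51289919 and Col25a1 at chr3:130180595-130180844, the second inside the longer GENCODE gene model but in no exon), are given with the same motifs in capitals.
Col23a1: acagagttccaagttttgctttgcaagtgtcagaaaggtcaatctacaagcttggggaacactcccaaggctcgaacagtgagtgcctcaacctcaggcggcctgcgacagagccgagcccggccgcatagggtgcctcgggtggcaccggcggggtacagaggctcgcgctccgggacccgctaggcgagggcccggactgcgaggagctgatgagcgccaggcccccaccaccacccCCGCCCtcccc
Col25a1: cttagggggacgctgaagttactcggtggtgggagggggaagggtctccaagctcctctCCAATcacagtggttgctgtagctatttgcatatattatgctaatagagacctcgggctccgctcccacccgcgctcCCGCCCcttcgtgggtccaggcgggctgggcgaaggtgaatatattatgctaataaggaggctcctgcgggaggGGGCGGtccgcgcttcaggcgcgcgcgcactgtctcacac
The Col23a1 stretch held 1 GGGCGG and no CCAAT, the Col25a1 stretch held 1 CCAAT and 2 GGGCGG, and neither held TATAAA on either strand.

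The remaining collagens were not called. Col7a1, the anchoring fibril chain of skin, had 5.99 ± 0.43 CPM in Brg1 cKO and 5.54 ± 0.86 CPM in Brg1 WT (SD, n = 4 each). Col26a1, described in mouse testis and ovary, had 14.6 ± 3.85 CPM in Brg1 cKO and 9.86 ± 1.83 CPM in Brg1 WT (log2 fold change 0.56 ± 0.21, edgeR adjusted p = 0.0888), with 9.004 CPM in Brg1 cKO replicate 4. Col8a1, Col8a2 and Col28a1 had log2 fold changes of 0.31, -0.05 and -0.36, none of them called.

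The same libraries were low for many collagens. In Brg1 cKO, replicate 4 was the lowest library for 25 of the 41 tested collagens, and in Brg1 WT, replicate 1 was the lowest for 30. The share of all genes tested that were lowest in these libraries was not computed, so these counts are not shown to be particular to collagens. Summed over all 44 genes, collagen took 0.576%, 0.604%, 0.568% and 0.369% of the TMM-scaled library in Brg1 cKO replicates 1 to 4 and 0.301%, 0.455%, 0.394% and 0.389% in Brg1 WT replicates 1 to 4. Brg1 cKO replicate 4 lay below all Brg1 WT libraries but replicate 1.

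**Figure D4:**
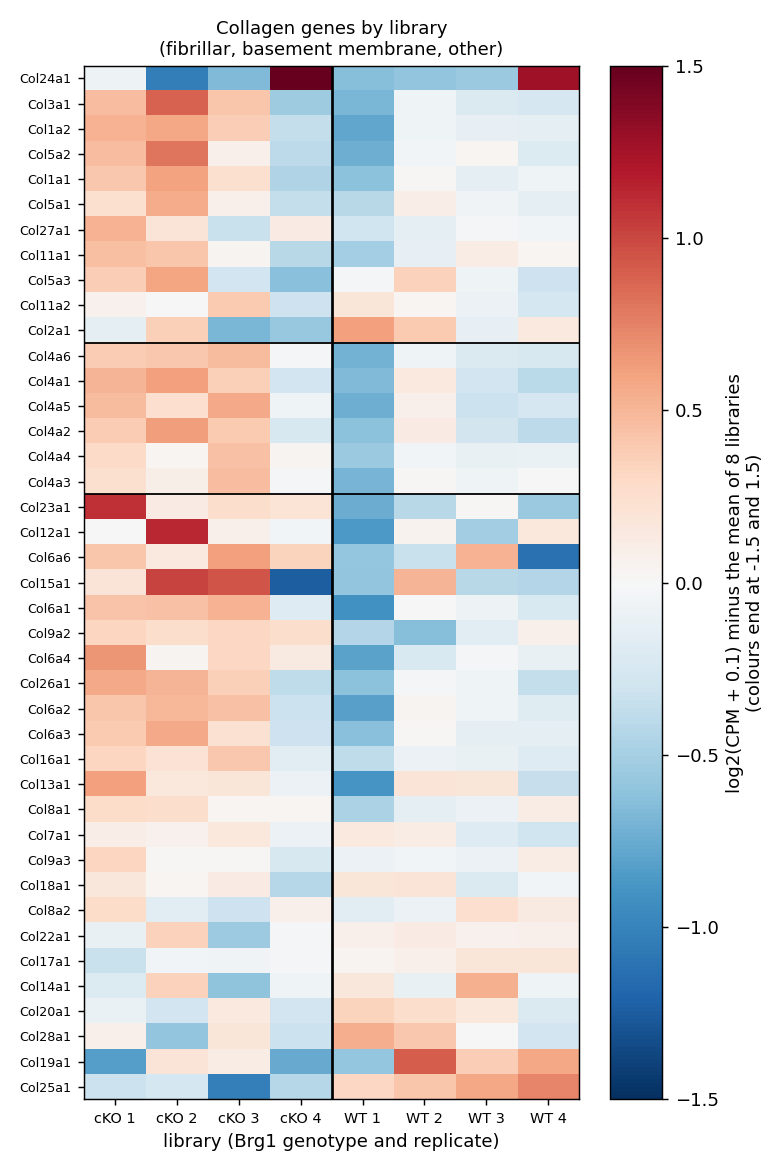
Each row is 1 of the 41 tested collagen genes and each column 1 library, with Brg1 cKO left of Brg1 WT. Colour is log2(CPM + 0.1) minus the gene's mean over the 8 libraries, with colours ending at -1.5 and 1.5; black lines part the classes and genotypes. Rows of abundant fibrillar, type IV and type VI chains are mostly red in Brg1 cKO replicates 1 to 3 and blue in Brg1 WT replicate 1.

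Stromal fibroblast markers had their lowest libraries in common with the collagens, as did the peritubular myoid, Leydig, endothelial and macrophage lists by summed CPM. For the Leydig list Nr5a1 made up most of the sum, at 101 of 144 CPM in Brg1 WT replicate 1. By mean log2 CPM that list was lowest in Brg1 WT replicate 4 (1.69), with 2.08 in Brg1 WT replicate 1. The 16 stromal fibroblast markers, which hold no collagen, summed to 1028, 1085, 892 and 623 CPM in Brg1 cKO replicates 1 to 4 and 388, 678, 650 and 580 CPM in Brg1 WT replicates 1 to 4, again with Brg1 cKO replicate 4 and Brg1 WT replicate 1 lowest in their groups. In that list 6 genes were called higher and 1 lower, where 8.79% of all genes tested were called higher and 11.8% lower, and the median log2 fold change was 0.61, beside 0.40 for the tested collagens. Pdgfra, the receptor that marks many fibroblasts, had 235 ± 52.5 CPM in Brg1 cKO and 115 ± 25.6 CPM in Brg1 WT (SD, n = 4 each; edgeR adjusted p = 0.0140). The 11 peritubular myoid markers summed to 2052 to 2998 CPM in Brg1 cKO and 1306 to 2292 CPM in Brg1 WT, with 1 called lower (Actg2, a smooth muscle actin, log2 fold change -1.14), 10 not called and a median of 0.35, which was 0.21 without Brg1 WT replicate 1. The 19 Sertoli cell markers had 8 called higher, 1 lower and 10 not called at a median of 0.38. Sox9, Wt1, Dmrt1 and Gata1 were among those not called, at log2 fold changes of 0.37, 0.26, -0.02 and -0.03. By summed CPM of this list Brg1 cKO replicate 4, at 9483 CPM, lay between replicates 1 and 3. Gdnf, a growth factor Sertoli cells make for germline stem cells, had 18.3 ± 1.198 CPM in Brg1 cKO and 8.22 ± 1.598 CPM in Brg1 WT (SD, n = 4 each; edgeR adjusted p = 0.00218), and Cst12 rose by 0.46 on the log2 scale. Leydig cell markers had 3 of 10 higher (Nr5a1 and Fabp3 with the smallest p) at a median of 0.67. No endothelial (14) or macrophage (12) marker was called by edgeR, and the medians were 0.37 and 0.51. At an unadjusted p under 0.05 there were 2 and 0, against 5897 of the 16059 genes tested. The endothelial median was 0.07 without Brg1 cKO replicate 2 and 0.57 without Brg1 WT replicate 2. The macrophage median was 0.21 once Brg1 cKO replicate 1 was dropped, 0.33 once Brg1 WT replicate 1 was dropped and 0.805 once Brg1 WT replicate 3 was dropped. Their most abundant members, Pecam1 and Mrc1, had log2 fold changes of 0.02 and -0.03. Pan-germ cell markers had 5 of 12 lower, at a median of -0.39, with Sall4 at -0.65 and Tex14 at -0.50. Dmc1 and Sycp1, genes of meiosis, were also among the called. Ddx4, Dazl and Mael, at -0.27, -0.28 and -0.18, were not called (edgeR adjusted p = 0.175, 0.116 and 0.335), and their libraries overlapped between genotypes.

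With the mean log2 level of the stromal and myoid markers as an offset for each library, edgeR called no collagen higher (0 at an unadjusted p under 0.05) and Col25a1 alone lower. In that fit the class medians were -0.08 for fibrillar, 0.20 for type IV and -0.02 for other collagens, while the median of all genes tested was -0.35. With the Sertoli cell median taken as no change, the class medians were -0.10, 0.22 and -0.03 at an all-gene median of -0.37, edgeR called none higher (0 at an unadjusted p under 0.05), and 9 were called lower, Col18a1 among them. Over all genes, 1412 were called higher and 1900 lower as reported, 17 and 1055 with the stromal offset, and 69 and 8570 with the Sertoli scaling. The part of these markers in the collagen differences was not tested beyond these values.

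**Figure D5:**
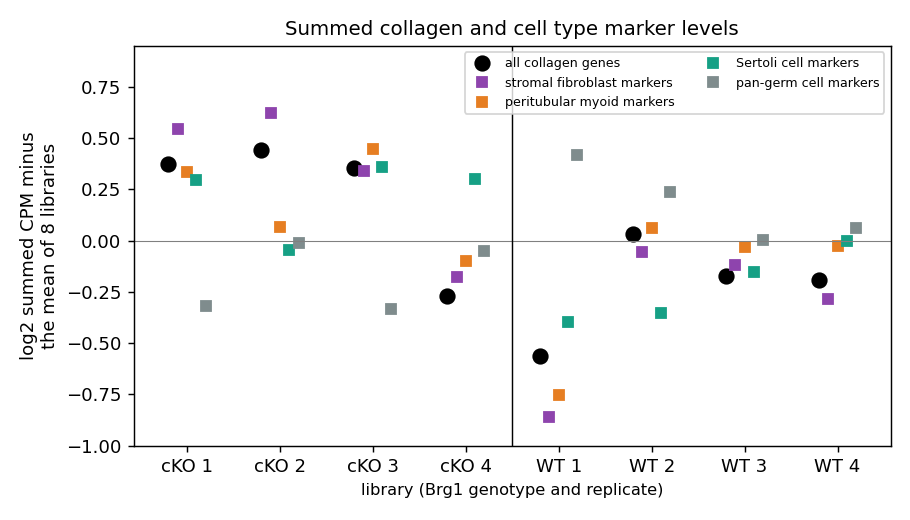
Log2 of the summed CPM of all 44 collagen genes (black circles) and of 4 marker lists (squares), each minus its own mean over the 8 libraries (y axis), by library (x axis), Brg1 cKO left of Brg1 WT. Collagen, stromal fibroblast markers and peritubular myoid markers share their lowest libraries in each genotype, Brg1 cKO replicate 4 and Brg1 WT replicate 1. Sertoli cell markers were also lowest in Brg1 WT replicate 1 within their genotype but were not low in Brg1 cKO replicate 4.

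Ratios of counts between collagens within a library do not depend on the scaling. For partner type IV chains the libraries of the genotypes overlapped. Col4a2 over Col4a1 was 0.628 ± 0.036 in Brg1 cKO and 0.637 ± 0.0092 in Brg1 WT, Col4a6 over Col4a5 0.232 ± 0.019 in Brg1 cKO and 0.232 ± 0.016 in Brg1 WT, and Col4a4 over Col4a3 1.58 ± 0.061 in Brg1 cKO and 1.56 ± 0.11 in Brg1 WT (SD, n = 4 each). Col1a2 over Col1a1 was 1.94 ± 0.098 in Brg1 cKO and 1.74 ± 0.083 in Brg1 WT, with overlap. Among the 9 ratios computed, chosen after the values were seen, 1 had no overlap between genotypes: Col18a1 over Col4a1 was 0.544, 0.457, 0.584 and 0.626 in Brg1 cKO replicates 1 to 4 and 1.23, 0.713, 0.728 and 0.888 in Brg1 WT replicates 1 to 4. Of single genes tested, 26% did not overlap in either direction, and no such share was computed over the ratios of other genes. Brg1 cKO replicate 4, low in both genes, had the highest ratio of its group, still below that of every Brg1 WT library.

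Among genes that make, cut and bind collagen, more members of each list were called higher than lower. Of 20 tested genes for hydroxylation, folding and secretion of collagen, 4 rose and 16 were not called, at a median log2 fold change of 0.19. The prolyl isomerase gene Ppib, a partner in prolyl hydroxylation, had 142 ± 8.08 CPM in Brg1 cKO and 121 ± 3.02 CPM in Brg1 WT (edgeR adjusted p = 0.0195). Leprel2, which encodes a collagen prolyl hydroxylase, was at 21.4 ± 6.21 CPM in Brg1 cKO and 12.7 ± 1.797 CPM in Brg1 WT (edgeR adjusted p = 0.0276), and the lysyl hydroxylase gene Plod2 at 194 ± 15.5 CPM in Brg1 cKO and 165 ± 4.46 CPM in Brg1 WT (SD, n = 4 each; edgeR adjusted p = 0.0342).

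Of 13 genes that cleave procollagen or cross-link the fibres, 3 rose and 1 fell, with a median of 0.36. The proteinase genes that rose remove procollagen ends. Adamts14 had 19.3 ± 2.13 CPM in Brg1 cKO and 12.7 ± 2.08 CPM in Brg1 WT, Bmp1 51.2 ± 5.87 CPM in Brg1 cKO and 31.5 ± 7.78 CPM in Brg1 WT, and Adamts2 73.9 ± 6.26 CPM in Brg1 cKO and 54.6 ± 8.61 CPM in Brg1 WT (edgeR adjusted p = 0.0167, 0.0279 and 0.0286), none of them overlapping between genotypes. Pcolce2, an enhancer of procollagen cleavage named after its values were seen, fell to 0.36 ± 0.11 CPM in Brg1 cKO, against 0.81 ± 0.24 CPM in Brg1 WT (edgeR adjusted p = 0.0345).

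Of 8 tested genes for collagen breakdown and its inhibitors, Mmp14 (146 ± 8.18 CPM in Brg1 cKO, 111 ± 16.7 CPM in Brg1 WT) and Mmp2 (48.6 ± 3.26 CPM in Brg1 cKO, 34.2 ± 7.61 CPM in Brg1 WT) rose and Mmp9 (2.85 ± 0.23 CPM in Brg1 cKO, 4.99 ± 1.25 CPM in Brg1 WT) fell, with edgeR adjusted p = 0.0263, 0.0446 and 0.0201. Mmp14 encodes a membrane-bound metalloproteinase that activates the gelatinase made from Mmp2. Of 8 tested collagen receptors, 3 rose and 5 were not called, and all 8 log2 fold changes were positive, with a median of 0.42. Gpr56, now named Adgrg1, which binds type III collagen in the brain, had 262 ± 26.4 CPM in Brg1 cKO and 180 ± 23.4 CPM in Brg1 WT (edgeR adjusted p = 0.0101). Ddr1, a receptor tyrosine kinase for collagen, had 272 ± 54.9 CPM in Brg1 cKO and 177 ± 14.3 CPM in Brg1 WT, and the integrin gene Itga10 had 4.81 ± 0.36 CPM in Brg1 cKO and 2.50 ± 0.80 CPM in Brg1 WT (edgeR adjusted p = 0.0132 and 0.0210). Set against 8.79% of all genes called higher, these lists had 4 of 20, 3 of 13, 2 of 8 and 3 of 8 members called higher, counts too small to be read as a share.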

How the data were processed

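Estimated counts per gene symbol, 1 column a library, were deposited by the authors without scaling for depth or length. The submitters' processing notes name kallisto 0.42.5, edgeR and the build mm9. The sources used here give neither the annotation nor how transcripts were combined into symbols. Per the labels' protocols, the library kit was stranded and for mRNA. Fractional values made up 49.6% of the deposited estimated counts, which were rounded.

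Genes were filtered with filterByExpr by genotype (16059 of 28460 kept), scaled by TMM, and compared by the edgeR 4.0.16 quasi-likelihood test (R 4.3.3, robust, genotype the only term), with Benjamini-Hochberg adjustment over all genes tested and a threshold of 0.05. The SE of a log2 fold change is its absolute value over the root of F. List levels used a prior count of 2. Alternatives were RLE factors, DESeq2 1.42.0, limma-voom (limma 3.58.1), other filters, left-out libraries, a replicate block and 2 other levels of no change. The test was checked on simulated counts. The design text calls the 4 libraries a genotype biological replicates, and no pair within a genotype agreed within sampling noise (chi-square per degree of freedom at least 21.6). Brg1 WT replicate 1 differed most from its group, at 55.1, 74.3 and 69.6 against Brg1 WT replicates 2, 3 and 4, where every other pair had at most 33.7.

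Transcript lengths came from GENCODE M21 and promoter sequences from RefSeq, both of a later build than the counts. Levels in every library were given for called collagens and the 3 most abundant of each class. In pathway lists up to 3, and in cell type lists up to 2, called genes with the smallest adjusted p were named, or the most abundant where none was called. Other library values were chosen for printing after they were seen. The members, lists and rules were chosen with earlier results of these data known.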

Additional observations from a re-analysis of the deposited data

Results flagged for a closer look

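Among 90 sets of 4 libraries examined (41 tested collagens and 4 sums, in each genotype), 15 held a library that stood apart by Dixon's ratio, where chance gives about 1 in 20 (4.5). These sets are not independent, since collagens vary together.

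In Brg1 cKO, replicate 4 stood below the other libraries for all collagen genes summed (3687 CPM, next 5675), for the type IV sum (1759 CPM, next 2484), for the sum of the other collagens (904 CPM, next 1403), for Col6a1 (193.9 CPM, next 299.4) and for Col6a2 (106.5 CPM, next 177.5). It stood above them for Col24a1, at 3.46 CPM with 0.60 CPM next. Replicate 1 stood above the rest for Col23a1 (29.2 CPM, next 16.4) and below them for Col17a1 (5.403 CPM, next 6.58), and replicate 2 stood above the rest for Col12a1 (5.10 CPM, next 2.41).

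In Brg1 WT, replicate 1 stood below the others for Col1a2 (351.9 CPM, next 546.4), Col4a3 (206.7 CPM, next 320.9) and Col4a4 (357.3 CPM, next 487.2). Replicate 2 stood above the others for Col15a1 (115.8 CPM, next 61.0) and, by a small margin, for Col22a1 (27.8 CPM, next 26.8). Replicate 4 stood above the others for Col24a1 (1.67 CPM, next 0.40), as Brg1 cKO replicate 4 did in its genotype.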

How the results depend on the processing

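RLE factors and a filter of 1 CPM in 4 libraries changed no collagen call, and without a filter Col4a5 was lost (adjusted p = 0.0715). By limma-voom Col9a2 was called and Col16a1 was not. DESeq2 called 13 collagens and 2220 of all genes higher. Without Brg1 WT replicates 1 and 2 together, 96 of all genes were higher and 342 lower and edgeR called 0 collagens in either direction, where an unadjusted p under 0.05 gave 7 higher and 1 lower. Over the 8 left-out libraries, collagens called ranged from 0 to 13 higher and 1 to 1 lower, and all genes from 556 to 1497 higher and 1052 to 1980 lower. Class medians ranged from 0.23 to 0.42 (fibrillar), 0.49 to 0.73 (type IV) and 0.21 to 0.42 (other), and log2 ratios of class sums from 0.39 to 0.71, 0.39 to 0.63 and 0.24 to 0.43. The replicate block gave 2 collagens higher (Col4a2 and Col4a6), and 745 of all genes higher and 1169 lower. The numbers mark no stated pairing. Same-numbered libraries correlated at -0.208, 0.123, -0.361 and 0.153 in their deviations, and 2 of 4 Brg1 cKO libraries correlated best with their own number. With 4 libraries a genotype, each centred on its group, these values can neither show nor exclude a pairing. With the Sertoli median as no change, 0 collagens were higher and 9 lower, all genes 69 and 8570, the class medians -0.10, 0.22 and -0.032, and the log2 ratios of sums 0.15, 0.12 and -0.088. With the stromal and myoid offset, 0 collagens were higher, all genes 17 and 1055, the medians -0.081, 0.20 and -0.023, and the log2 ratios of sums 0.11, 0.13 and -0.11 (fibrillar, type IV, other). Col18a1 turned to 0.068, 0.001, 0.01 and 0.12 without Brg1 cKO replicate 4, Brg1 WT replicate 1, Brg1 WT replicate 2 and Brg1 WT replicates 1 and 2. As mean log2 CPM, the class differences were 0.24, 0.53 and 0.21, where the log2 ratios of sums were 0.53, 0.51 and 0.30. With multiplexins counted as basement membrane, that median was 0.60 and the median of the other class 0.35; class sums were not recomputed for it. The sums were not recomputed for limma-voom and the block, which use the same scaling. The cause of these changes was not tested. Depth limits what Col6a5, Col9a1 and Col10a1 can show, at 20 or fewer counts a genotype.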
